A study of Mus musculus with 20 samples.

Results

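The cells described here carried both Pou5f1 and Zfp42 RNA when mouse XEN cells were driven toward iPS cells. They are the earliest only among the days of reprogramming that were sampled, since none was sampled before day 7. They were chosen from the day 7 and day 14 libraries by their unique molecular identifiers (UMIs, each 1 counted RNA molecule). A cell had to have at least 500 genes, at least 2 UMIs of Pou5f1, at least 1 UMI of Zfp42, and fewer than 5 UMIs of the collagen genes Col1a1, Col1a2 and Col3a1 summed, a limit that keeps feeder fibroblasts out. This gave 382 double-positive cells among the 23661 cells of the 4 libraries and the 134279 cells of the whole series. They were compared with the 17429 cells of the same libraries that passed the same limits on genes and collagen and had no UMI of Pou5f1 or Zfp42, called negative cells.

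The study followed conversion in both directions between XEN cells, a stem cell line of the extraembryonic endoderm, and pluripotent cells, in 20 single-cell RNA-seq libraries made as technical duplicates of 10 conditions. The conditions used here were XEN (before induction), reprogramming cells of days 7, 14 and 28, the resulting XEN-iPS line, and ES cells before their own conversion. XEN, reprogramming and XEN-iPS cells were of the line 3F-4, homozygous for 3 alleles, Col1A1TetO-OKSmCh/TetO-OKSmCh, then the transactivator R26M2rtTA/M2rtTA, and the reporter Oct4-GFPTg/Tg. All of them therefore carried a doxycycline-inducible cassette of Oct4 (the protein of Pou5f1), Klf4, Sox2 and mCherry, and a green reporter at the Pou5f1 locus. Cells of days 7, 14 and 28 had been given doxycycline for 2 days, sorted for mCherry and then cultured on feeder fibroblasts with doxycycline, serum, LIF, ascorbic acid and a GSK3β inhibitor. XEN cells were kept on feeders in that medium without doxycycline. ES cells were of the line iGata4-Gata6-Venus, with the genotype Col1A1TetO-Gata4/+; R26M2rtTA/+; Gata6H2B-Venus/+, taken before Gata4 was induced. At days 7, 14 and 28 the cells were sorted by the surface marker SSEA-1 and the green reporter into 4 subpopulations that were put together again in about equal parts, so a share of cells in these libraries is not a share of the culture. The counts do not separate transcripts of the cassette from those of the endogenous genes.

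Day 7 replicate 1 stood apart from the other libraries. It held 1 double-positive cell, without a UMI of Dppa5a, among 2604 cells that passed, and 296 cells with 5 or more collagen UMIs, against 11 to 31 in the other libraries of days 7 and 14. It was therefore left out of the tests, which rest on day 7 replicate 2 and both day 14 libraries. The duplicates are technical, so standard errors and p-values here do not cover the variation between cultures. Double-positive cells had median totals of 15025, 15818 and 18294.5 UMIs in these 3 libraries and negative cells 15486, 11436 and 13156 UMIs. Summed over cells, the double-positive class held 1969433, 1799308 and 3121670 UMIs.

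Pou5f1 encodes the transcription factor Oct4, which pluripotent cells need and which, with Sox2 and Nanog, forms the core of their gene network. Zfp42, also called Rex1, encodes a zinc finger protein used as a marker of naive pluripotency, the state of the epiblast before implantation. Gata4, Gata6 and Sox17 are the factors that set up the opposite fate, primitive endoderm, from which XEN cells derive.

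The double-positive cells were rare and of similar share in the 3 libraries that held them. They were 120 of 5490 passing cells in day 7 replicate 2, 2.19% with an exact 95% binomial interval of 1.82 to 2.61%. They were 101 of 5028 (2.01%, 1.64 to 2.44%) in day 14 replicate 1 and 160 of 6214 (2.57%, 2.195 to 3.00%) in day 14 replicate 2. In day 7 replicate 1 the share was 0.0384%, with an interval of 0.000972 to 0.214% that lies below those of the other libraries. XEN libraries held 0 such cells among 6942 and 6155, with exact upper limits of 0.0531% and 0.0599%. Zfp42 without a Pou5f1 UMI was found in 186 and 132 of the same XEN cells. Intervals cover counting error only.

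By the rule that chose them, the members had Pou5f1 and Zfp42 and the negative cells had neither, so these values are a description without a test. Pou5f1 stood at a median of 4, 3 and 4 UMIs per member in day 7 replicate 2 and day 14 replicates 1 and 2, with highest values of 17, 17 and 20. Zfp42 stood at a median of 2, 2 and 1 UMIs, with highest values of 16, 31 and 26. Most members were thus close to the limits. Of the 382 cells, 89 had exactly 2 UMIs of Pou5f1, 171 had exactly 1 of Zfp42 and 45 had both. Just outside, 126 cells had Zfp42 but 1 UMI of Pou5f1.

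Dppa5a, a gene of pluripotent cells on chromosome 9 (GRCm38, 78367052 to 78368177, minus strand) that the rule did not use, was high in these cells but not in these alone. As its part of all UMIs, in counts per 1000000 (CPM), its level in double-positive cells was 4120.0, 4728 and 4811 in day 7 replicate 2, day 14 replicate 1 and day 14 replicate 2. In negative cells it was 149.8, 245 and 230.2. The classes did not overlap, and the log2 fold change was 4.39 ± 0.14 (SE, 3 libraries), with an adjusted p of 2.8e-09 in edgeR's quasi-likelihood test after Benjamini-Hochberg correction. Per cell the members had medians of 51.5, 72 and 75.5 UMIs of Dppa5a, where the median of negative cells was 0 in each library. With every cell thinned to 2000 UMIs, 87.5%, 99.0% and 98.8% of double-positive cells had a Dppa5a UMI. The same was true of 12.01%, 17.9% and 17.7% of negative cells. Without thinning the shares were 95.8%, 100.0% and 100.0% of double-positive cells and 33.3%, 40.1% and 45.2% of negative cells. Fibroblast-like cells with 5 or more collagen UMIs, which should lack the gene if they are fibroblasts, had it in 0 of 11, 9.68% of 31 and 27.8% of 18 cells after thinning, and in 1.03% of 292 such cells of day 7 replicate 1. The exact intervals of these small sets of fibroblast-like cells reached up to 28.5%, 25.8% and 53.5% in the 3 libraries. Before thinning, 4 of the 19 fibroblast-like cells of day 14 replicate 2 (21.1%) met the UMI limits for Pou5f1 and Zfp42. That set is thus not a clean one of cells without the gene. In day 7 replicate 1, 14.1% of negative cells had a Dppa5a UMI after thinning and 36.8% before. Single negative cells had up to 189 UMIs of Dppa5a in day 7 replicate 1 and up to 192, 190 and 206 in the other 3 libraries, so some negative cells had as many as the members. Cells with Pou5f1 and no Zfp42 UMI stood at 3497, 4658 and 3347 CPM in the 3 libraries, near the members. XEN cells had 0.542 and 0.635 CPM.

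The promoters of Zfp42 and Nanog are shown because they alone held an exact match to the Oct4 letters searched. They were among 17 promoters looked up, those of Pou5f1, Zfp42 and the named pluripotency and highest genes for which a promoter was at hand. Others of these genes, such as Dppa5a, Stmn2 and Aldh3a1, had none and were not searched. Both strands were searched for the octamer, ATTTGCAT, and for the joint element of Oct4 and Sox2, which shares TTTGCAT with the octamer. Shorter or variant letters were not counted, such as TTTGCAT on the other strand of the Sox2 promoter. Capitals mark the match in the 250 bases before the start (RefSeq, GRCm38.p6, 5′ to 3′ on the gene's strand), at chr8:43307010-43307259 on the minus strand for Zfp42 and chr6:122707239-122707488 on the plus strand for Nanog.
Zfp42: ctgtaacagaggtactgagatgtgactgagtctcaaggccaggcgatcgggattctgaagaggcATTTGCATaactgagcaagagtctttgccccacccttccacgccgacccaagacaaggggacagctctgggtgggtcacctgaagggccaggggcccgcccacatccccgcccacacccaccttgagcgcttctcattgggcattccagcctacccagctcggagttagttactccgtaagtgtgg
Nanog: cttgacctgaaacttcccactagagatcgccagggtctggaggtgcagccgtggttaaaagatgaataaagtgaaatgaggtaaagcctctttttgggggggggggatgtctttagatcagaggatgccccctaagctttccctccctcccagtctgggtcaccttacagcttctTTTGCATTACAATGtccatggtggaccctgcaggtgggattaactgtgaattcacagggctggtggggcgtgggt
In Zfp42 the octamer began 186 bases before the start, and in Nanog the joint element began 75 bases before it. The joint letters occurred in 1 of 27025 promoters, that of Nanog. The octamer occurred in 2.33% of 989 promoters of genes higher in double-positive cells, 1.56% of 640 of lower genes, 1.40% of 9704 of all genes tested and 1.75% of all promoters, in windows from 250 bases before to 50 after the start. A Klf element, CCACGCCC, occurred in 8.70%, 8.59%, 10.2% and 5.43%, and a GATA element, AGATAA, in 8.49%, 6.25%, 6.27% and 11.4% of the same sets. These matches are a description of the letters.

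Against negative cells, double-positive cells were higher in 26 of 33 genes on the list of naive pluripotency, 15 of 21 tested of the germline list and 5 of 11 of DNA methylation. They were lower in 6 of 16 genes of the parietal endoderm list and 5 of 9 tested of the mesenchymal list. UMIs were summed per library and class, and the classes were compared within libraries. Of 12716 genes tested, 1336 were higher (10.5%) and 859 lower (6.76%), where a call needed an adjusted p below 0.05 together with a change of 1 or more on the log2 scale. The median over all genes tested was -0.03. Adjusted p-values below are from the same test and correction.

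The gene with the largest difference among those with at least 50 CPM was Stmn2, which encodes a microtubule regulator known from neurons. It stood at 286, 153 and 78.5 CPM in double-positive cells and 0.198, 0.444 and 0.315 CPM in negative cells (log2 8.89 ± 0.37, adjusted p = 2.4e-08). Its level was highest in day 7 replicate 2, and without that library the log2 fold change was 8.07. Crxos, a homeobox gene of early embryos, was at 103, 80.6 and 103 CPM against 0.086, 0.426 and 0.506 CPM, a log2 fold change of 8.12 that became 7.49 without day 7 replicate 2. Calcoco2, an autophagy receptor, was at 118, 40.0 and 142 CPM against under 0.5 CPM in each library (log2 7.78 ± 0.22). Aldh3a1, an aldehyde dehydrogenase, differed most among the libraries, at 212, 27.8 and 95.1 CPM, and was under 0.8 CPM in negative cells of each (log2 7.44 ± 0.28). Fam25c was at 178, 108 and 181 CPM (log2 7.61). The others of the 15 highest were Gdf3, Utf1, Dnmt3l, Apoc1, Ly6a, Dppa4, Tdgf1, Gng2, Ly6k and Pycard, with log2 fold changes between 4.69 (Pycard) and 7.45 (Gdf3). The same direction in all 3 libraries was a condition for naming these 15.

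**Figure D1:**
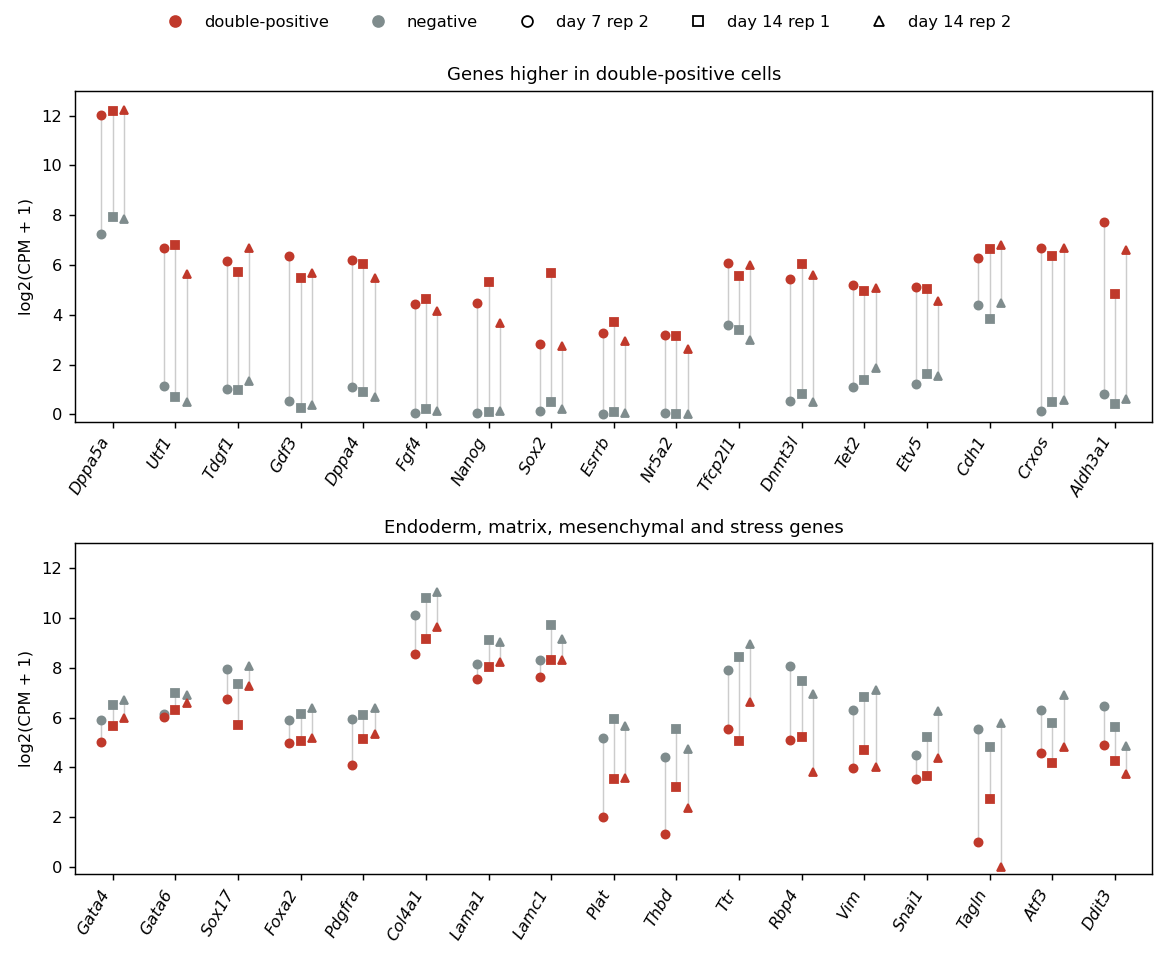
Levels of genes in double-positive (red) and negative (grey) cells, as log2(CPM + 1) on the y axis, with 1 symbol per library (circle day 7 replicate 2, square day 14 replicate 1, triangle day 14 replicate 2) and a line joining the classes of a library. In the upper panel red lies above grey for each gene in each library, and in the lower panel Col4a1 goes from 1110.0, 1796 and 2134 CPM in negative cells to 378, 565 and 800.2 CPM, with Gata6 nearest to level among the endoderm factors.

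Of the 33 genes on the list of naive and core pluripotency, all tested, 26 were higher and 0 lower, with a median log2 fold change of 4.41. At an unadjusted p under 0.05, 29 were above and 2 below 0, and DESeq2 called 26 higher and 0 lower. Nanog, a homeobox factor of the core network, was at 21.3, 38.3 and 11.9 CPM in double-positive cells and at 0.037, 0.053 and 0.082 CPM in negative cells (log2 8.37 ± 0.50, 9.13 without day 14 replicate 2). Esrrb, a nuclear receptor of the naive network, was at 8.63, 12.2 and 6.73 CPM and at or under 0.071 CPM in negative cells, where 7 UMIs were counted in all (log2 7.86, 7.17 without day 7 replicate 2). Nr5a2, another nuclear receptor, had 46 UMIs in double-positive and 2 in negative cells. Fgf4, a growth factor of the epiblast, was at 20.8, 23.9 and 16.7 CPM (log2 7.82) and Utf1, a chromatin factor, at 102, 111 and 48.7 CPM (log2 6.80).

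Sox2 and Dppa3 were far from even among the libraries. Sox2 stood at 50.02 CPM in day 14 replicate 1 but at 6.09 and 5.77 CPM in day 7 replicate 2 and day 14 replicate 2. In negative cells it was at 0.426 CPM or less, and its log2 fold change of 6.03 became 5.40 without day 14 replicate 1. Dppa3, also called Stella, a maternal factor that guards imprints, stood at 26.1 CPM in day 14 replicate 1 and at 2.54 and 4.80 CPM in the others (log2 7.23). Tcl1, an Akt coactivator, was at 13.7, 30.0 and 7.05 CPM, with a log2 fold change of 7.19 that ranged to 8.65 without day 14 replicate 2 and 6.37 without day 14 replicate 1. Mybl2 was moderately higher, at 108, 121 and 132 CPM against 35.8, 49.2 and 59.96 CPM (log2 1.24). Klf4, carried on the cassette, was not higher, at 88.9, 114 and 119 CPM against 94.4, 149 and 181 CPM, and Klf5 was at 94.4, 95.0 and 134 CPM against 255, 157 and 181 CPM (log2 -0.95). The members of the list that did not pass either way numbered 7.

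Levels were set against those of the same genes in double-positive ES cells. Among the 26 genes called higher, 18 stood under 50% and 7 over 80% of their mean level in ES cells, with a median of 38.0%. Sox2 was at 9.02% of ES, and at 2.59% without day 14 replicate 1. Utf1 was at 13.6%, Esrrb at 15.8%, Tdgf1 (a coreceptor of Nodal) at 22.9% and Nanog at 30.3%. In contrast, Dppa4 was at 89.9%, Dppa5a at 94.4% and Gdf3, a ligand of the TGF-β family, at 105% of ES. The median of the same 26 genes at day 28 was 67.5%. Libraries of ES cells came from another line and sequencing project, and the part of these in the ratios was not tested.

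Each cell was placed between XEN and ES by the genes that differ between those libraries. The position was computed from 100 genes per side, without Pou5f1, Zfp42 and the collagens, after thinning to 2000 UMIs. The UMIs of each side were divided by their median in ES or XEN cells. The position is the ES value as a part of both values together, near 0 at XEN and near 1 at ES. A cell low on both sides can therefore also lie in the middle. Double-positive cells had medians of 0.535, 0.568 and 0.520 in day 7 replicate 2, day 14 replicate 1 and day 14 replicate 2, near the middle. Negative cells of these libraries had medians of 0.103, 0.0797 and 0.0871, XEN cells 0.0225 and 0.0326, and double-positive ES cells 0.988 and 0.986. The members were spread over nearly the whole scale, from 0.0463 to 1.00 in day 7 replicate 2, from 0.123 to 0.978 in day 14 replicate 1 and from 0.0261 to 0.987 in day 14 replicate 2. Positions over 0.8 were held by 29, 27 and 20 members of the 3 libraries, and positions under 0.2 by 4, 5 and 6. The classes overlapped, since negative cells reached 0.6998, 0.945 and 0.781, and 16.02%, 11.4% and 14.1% of them lay between 0.2 and 0.8. Double-positive cells of day 28 had medians of 0.850 and 0.843 and those of XEN-iPS 0.978 and 0.972. Negative cells of XEN-iPS, without a UMI of Pou5f1 or Zfp42, had medians of 0.673 and 0.642.

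**Figure D2:**
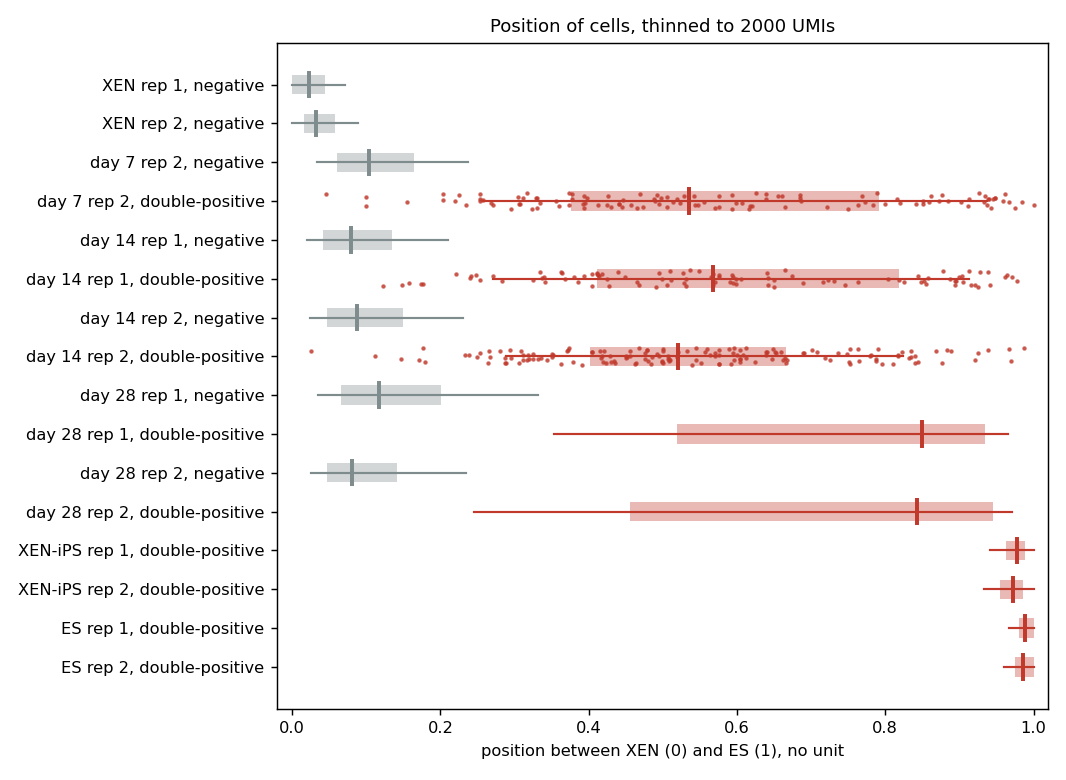
Position of cells between XEN (0) and ES (1) on the x axis, for each library and class on the y axis; boxes span the quartiles, thick lines are medians, thin lines run from the 10th to the 90th percentile, and red points are single double-positive cells of days 7 and 14. The members of days 7 and 14 cover nearly the whole axis around medians of 0.520 to 0.568, above the medians of the negative cells of their own libraries, and the ranges of both classes overlap.

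Members at different positions differed in these genes, which is a description because the position itself was made from such genes (all those named here except Pou5f1 and Zfp42 were used in it). Nanog summed to 0 UMIs in the 15 members under 0.2, 6.57 CPM in the 291 between 0.2 and 0.8 (the cell of day 7 replicate 1 included) and 85.2 CPM in the 76 over 0.8. Sox2 went from 0 UMIs through 3.57 to 76.1 CPM and Utf1 from 0 UMIs through 38.3 to 262 CPM. Dppa5a and Dnmt3l were already near their highest level in the middle range, at 2528, 4541 and 5124 CPM and at 11.7, 50.9 and 56.5 CPM. Sox17 was at 191, 135 and 11.3 CPM, Gata6 at 93.5, 96.5 and 17.3 CPM, and Sparc, a matrix protein of parietal endoderm shown as a further position gene, at 7116, 4282 and 311 CPM. Of the genes of the rule, Zfp42 was at 81.8, 102 and 493 CPM and Pou5f1 at 187, 255 and 372 CPM. Nanog and Sox2 were thus mostly counted over 0.8.

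Cells were also scored by single UMIs. At least 1 UMI of Nanog, Sox2 or Esrrb was found in 30.0%, 36.6% and 20.0% of double-positive cells of day 7 replicate 2 and day 14 replicates 1 and 2, against 0.1998%, 0.594% and 0.372% of negative cells. At least 1 UMI of Gata4, Gata6, Sox17 or Pdgfra was found in 69.2%, 77.2% and 89.4% of double-positive cells, against 95.0%, 92.5% and 92.5% of negative cells. In fibroblast-like cells the endoderm genes were found in 18.2% of 11, 25.8% of 31 and 47.4% of 19 cells. These cells had median totals of 10824, 11484 and 13006 UMIs. Whether fibroblasts themselves carry any of these genes, such as Pdgfra, was not tested. The part of free RNA in the shares of double-positive cells was not tested. The genes Nanog, Sox2 and Esrrb were found in 0 of 11, 3.23% and 10.5% of the same cells. The 19 fibroblast-like cells of day 14 replicate 2 include 4 that met the UMI limits for Pou5f1 and Zfp42. The shares of that library are thus not those of a clean set of fibroblasts. Both kinds occurred in 11.7%, 21.8% and 14.4% of the members. At day 28 the share with Nanog, Sox2 or Esrrb was 71.3% and 72.7% of double-positive cells, and the share with an endoderm gene 65.0% and 66.3%. In negative cells of day 28 these shares were 6.38% and 10.1%, and 88.6% and 89.5%. These shares were not thinned, and their differences between libraries were not tested for depth.

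Genes on the list of extraembryonic endoderm factors, which also holds receptors, were lower in some cases and higher in others. Of 13 tested, 3 were lower and 2 higher, with a median log2 fold change of -0.39. Over all genes tested 6.76% were lower and 10.5% higher. At an unadjusted p under 0.05, 4 were above and 6 below 0, and DESeq2 called 2 higher and 3 lower. Sox17 was at 108, 50.6 and 153 CPM against 247, 163 and 269 CPM (log2 -1.30 ± 0.16, adjusted p = 0.00012), Pdgfra, the receptor of platelet-derived growth factor, at 16.2, 34.5 and 39.7 CPM against 60.5, 68.0 and 81.6 CPM (log2 -1.34), and Foxa2 at 30.5, 32.2 and 35.2 CPM against 59.1, 70.6 and 83.4 CPM (log2 -1.21). These groups did not overlap. Gata4 was at 31.5, 49.5 and 61.8 CPM against 59.0, 89.996 and 105 CPM (log2 -0.93 ± 0.14, adjusted p = 0.00037), which is under the fold required for a call. Gata6 was at 63.5, 78.4 and 94.5 CPM against 70.5, 124 and 120.3 CPM (log2 -0.48), and Sox7 at 3.05, 7.78 and 5.12 CPM against 3.12, 10.4 and 12.2 CPM (log2 -0.79). The 2 higher members were Fgfr2, a receptor of FGF (log2 2.86), and Cubn, the endocytic receptor cubilin (log2 2.53, at 37.1, 42.8 and 31.7 CPM against 5.80, 6.21 and 5.93 CPM).

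Of the 16 genes on the list of parietal endoderm, which holds basement membrane genes and others, all tested, 6 were lower and 0 higher (median log2 -0.91). At an unadjusted p under 0.05, 15 were below and 0 above 0, and DESeq2 called the same numbers, 6 and 0. Col4a1, a chain of collagen IV, was at 378, 565 and 800.2 CPM against 1110.0, 1796 and 2134 CPM (log2 -1.64 ± 0.11), and Col4a2 changed alike (log2 -1.68). Lamc1, a laminin chain, had a log2 fold change of -1.08 and Lama1, at -0.93, was not called. The other 3 called members are not basement membrane proteins. Thbd, the thrombin receptor thrombomodulin, Plat, tissue plasminogen activator, and Fst, the activin inhibitor follistatin, had -2.84, -2.66 and -2.45.

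Visceral endoderm genes went both ways, with 5 lower and 2 higher of 13 tested (median log2 0.08), and 4 lower and 2 higher by DESeq2. The shares over all genes tested were 6.76% lower and 10.5% higher. Lower were the transport proteins Rbp4, at 33.5, 36.1 and 13.1 CPM against 267, 179 and 124 CPM (log2 -2.92), and Ttr, at 46.2, 32.8 and 98.7 CPM against 241, 343 and 489 CPM (log2 -2.74), and also Cldn6 (-1.45), Ihh (-1.26) and Afp (-1.51). Afp was not called without day 7 replicate 2 (log2 -1.04, adjusted p = 0.21) or without day 14 replicate 1 (-1.63, adjusted p = 0.067), nor in 5 other alternatives, DESeq2 among them, with adjusted p between 0.055 (no replicate block) and 0.092 (depth-matched negative cells). Higher were Amn, the partner of cubilin in uptake, at 35.5, 43.4 and 57.7 CPM against 1.46, 1.58 and 3.37 CPM (log2 4.37), and Apom, an apolipoprotein (log2 4.31). Cubn and Amn, which form 1 receptor complex, were thus both higher. Among the lowest genes with at least 50 CPM, the prostaglandin receptor gene Ptger3 was the lowest, at 2.54, 3.89 and 3.52 CPM against 36.8, 53.7 and 63.4 CPM (log2 -4.07). Prss12 (-3.58), Pitx1 (-3.49), Gkn2 (-3.09, -3.82 without day 14 replicate 2), the lactate dehydrogenase subunit Ldhb (-2.89), Vim (-2.69) and the trefoil factor Tff1 (-2.65) were also among them, as were Rbp4 and Ttr. Ldhb was not called with day 28 in the model (log2 -1.48, adjusted p = 0.12).

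Genes of DNA methylation were higher in 5 of 11 cases and lower in 0 (median log2 0.62). At an unadjusted p under 0.05, 8 were above and 2 below 0, and DESeq2 called 5 and 0. Dnmt3l, the cofactor of the de novo methyltransferases, was at 42.1, 64.5 and 48.1 CPM against 0.457, 0.781 and 0.424 CPM (log2 6.47 ± 0.21). Dnmt3a was higher with a log2 fold change of 1.42, and Dnmt3b, at 0.62, was not called. The demethylating dioxygenases Tet2, at 35.5, 30.0 and 32.4 CPM against 1.11, 1.60 and 2.68 CPM (log2 4.15), and Tet1 (log2 1.85) were higher, while Tet3 was at -0.71 and not called. Zfp57, which protects imprints, was higher as well (log2 2.29).

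Of 25 germline and Rhox genes, 21 passed the filter on low counts, and of these 15 were higher and 2 lower (median log2 2.45). Over all genes tested 10.5% were higher and 6.76% lower. A gene almost absent from negative cells can pass the filter through the double-positive sums. The set of 21 thus depends in part on the difference that is counted. The same holds for the visceral endoderm, mesenchymal, trophoblast and formative lists, of which only some members passed the filter, through either class. Dazl, an RNA-binding protein of germ cells, was at 13.7, 36.7 and 6.73 CPM against 0.198, 0.462 and 0.205 CPM (log2 5.76). Sycp3, of the meiotic chromosome axis, was at 8.63, 11.1 and 4.49 CPM (log2 5.05). Rhox13 had 49 UMIs in double-positive and 6 in negative cells (log2 7.70, 7.03 without day 7 replicate 2 and 6.80 without day 14 replicate 2). Without day 14 replicate 1, which held all 6, negative cells had none and no fold is given. Sycp1, Mael, Hormad1, Ddx4 and Pramel7 stood under 8 CPM. The most abundant members, named after their values were seen, were Rhox5, at 696, 484 and 701 CPM against 221, 111 and 124 CPM (log2 2.00), Rhox6 (log2 1.93) and Rhox9 (log2 3.31). The 2 lower members, likewise, were Kit, the receptor of stem cell factor (log2 -2.24), and Ifitm1 (log2 -2.31).

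Of the FGF and ERK response, 7 of 13 genes were higher and 0 lower (median log2 1.48). At an unadjusted p under 0.05, 7 were above and 1 below 0, and DESeq2 called 7 and 0. Beside the ligand Fgf4 and the receptor Fgfr2 these were the receptor Fgfr1 (log2 3.94), the transcription factor Etv5, at 33.5, 32.2 and 22.4 CPM against 1.36, 2.06 and 1.94 CPM (log2 3.94), the inhibitor Spry4 (3.23), the phosphatase Dusp4 (1.78) and Egr1, an immediate early gene (1.48). Egr1 was at 66.5, 66.1 and 99.9 CPM against 13.4, 21.9 and 53.6 CPM. Dusp4 was not called with the stricter UMI limits (log2 1.25, adjusted p = 0.071), and Egr1 was not with day 28 in the model (0.65, adjusted p = 0.20). Of 11 genes of the LIF and STAT3 response, 2 were higher, where 10.5% of all genes tested were higher. These were Tfcp2l1, at 66.5, 46.7 and 63.1 CPM against 10.9, 9.39 and 6.84 CPM (log2 2.63), and Gbx2, which had few UMIs. None of the list was called lower by edgeR or DESeq2, and 3 were below 0 at an unadjusted p under 0.05. Stat3 itself was at -0.70 and Socs3, its feedback inhibitor, at -0.37 (log2, not called). Of 6 Wnt targets tested, 0 were called by either tool, and 0 passed an unadjusted p of 0.05 (median log2 -0.54).

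Of 8 genes of AP-1, a family of transcription factors that respond to stress and growth signals, 2 were lower and 0 higher (median log2 -0.38). DESeq2 called the same numbers, and 4 were below and 0 above 0 at an unadjusted p under 0.05. Atf3 was at 22.8, 17.2 and 27.5 CPM against 77.3, 53.4 and 119 CPM (log2 -1.96 ± 0.16, adjusted p = 5.5e-06) and Fosl2 had a log2 fold change of -1.83. Jun, Junb, Fos and Fosb were not called, and their differences changed with the library. Jun was higher in double-positive cells of day 7 replicate 2 (227 against 158 CPM) and lower in both day 14 libraries (98.4 and 212 against 207 and 399 CPM). Fos was at 138 against 68.6 CPM at day 7, and at 52.2 and 172 against 65.0 and 194 CPM at day 14. In the stress list, 3 of 13 genes were lower and 0 higher by edgeR and by DESeq2, with 1 above and 6 below 0 at an unadjusted p under 0.05. The lower genes were Chac1 (-2.04), Ddit3 (-1.505) and Trib3 (-1.36), targets of the integrated stress response, while Atf4 was at -0.67, Hspa8 at -0.56 and Hsp90aa1 at 0.64 and not called. Trib3 was not called with day 28 in the model (log2 -0.48, adjusted p = 0.39) or with no replicate block (-1.55, adjusted p = 0.063).

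Of 9 mesenchymal genes tested of the 13 on the list, 5 were lower and 0 higher by both edgeR and DESeq2, and 6 were below and 0 above 0 at an unadjusted p under 0.05. Vim, the intermediate filament vimentin, was at 14.7, 25.01 and 15.1 CPM against 77.2, 111 and 136 CPM, and Snai1, the repressor of Cdh1, at 10.7, 11.7 and 19.9 CPM against 21.5, 36.8 and 76.8 CPM (log2 -1.71). Tagln was at 1.016, 5.56 and 0 CPM against 45.0, 27.1 and 54.6 CPM (log2 -4.66, -3.55 without day 14 replicate 2 and -7.13 without day 14 replicate 1). Acta2 (-2.95, -2.05 without day 14 replicate 2 and -7.02 without day 14 replicate 1) and Tgfb1 (-2.66) were also lower. Tgfb1 was not called with day 28 in the model (log2 -1.02, adjusted p = 0.15). The median of the list was -2.66, and -1.71 with Zeb2, which had no UMI in double-positive cells, placed at its bound of at least 1.54-fold lower (the 3 counts that a count of 0 allows, over the class). Of 15 epithelial genes, 3 were higher and 1, Cldn6, lower, where 10.5% and 6.76% of all genes tested were. Cdh1, E-cadherin, was at 76.2, 100.0 and 111 CPM against 19.8, 13.2 and 21.1 CPM (log2 2.32), and the desmosomal cadherin Dsg2 (1.59) and the transcription factor Grhl2 (2.15) were higher. Grhl2 was not called without day 14 replicate 2 (log2 1.88, adjusted p = 0.092).

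Markers of other cell types were at low levels. Of the 20 fibroblast genes 4 passed the filter on low counts, and their summed level was 19.8, 26.7 and 68.2 CPM in double-positive and 69.8, 66.6 and 93.9 CPM in negative cells. The 1 called was Fstl1, named after its value was seen, which was lower (log2 -1.49). The rule itself set the collagens. Of 9 trophoblast genes tested, 3 were higher and 2 lower. As in the germline list, a gene can pass the filter through the class where it is high, so these counts depend in part on the difference. None of the 9 exceeded 15.6 CPM, the level of the FGF receptor Fgfr2 in day 14 replicate 1. Elf5, a factor of the trophoblast stem cell, was at 5.58, 3.89 and 11.5 CPM against 0.383, 0.249 and 0.246 CPM (log2 4.42, 3.81 without day 14 replicate 2). Tfap2c had 14 UMIs in double-positive and 3 in negative cells. Gata3 and Cdx2 were at or under 4.80 and 0.641 CPM and not called. The 2 lower genes, Esx1 (no UMI, at least 2.62-fold lower) and Krt7 (log2 -1.52), were not called by DESeq2 (adjusted p = 0.057 and 0.061). Esx1 was also not called without day 14 replicate 2 (adjusted p = 0.10) and with both looser and stricter UMI limits (0.13 and 0.094). Krt7 was not called without day 14 replicate 1 (log2 -1.09, adjusted p = 0.14), nor in 4 other alternatives, with adjusted p between 0.054 and 0.18. Of 14 genes of the 2-cell stage, 1 passed the filter on low counts and was not called by either tool or at an unadjusted p under 0.05. Of 4 formative and primed genes tested of 12, 1 was higher (Foxd3, 21 UMIs against 2) and 1 lower (Sox4, log2 -1.60), both named after their values were seen.

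Cell cycle genes differed little. Of 43 S phase genes 0 were called by edgeR or DESeq2 (10 above and 4 below 0 at an unadjusted p under 0.05, median log2 0.09). Of 52 G2 and M phase genes 1, Psrc1, named after its value was seen, was higher (log2 1.07) and 0 were lower (14 above and 0 below 0 at an unadjusted p under 0.05, and 1 and 0 by DESeq2, median log2 0.16). Of the 26 genes that the study names, tested here on the same libraries, 15 were higher and 3 lower, which is not independent evidence. Among these, Klf9 (log2 1.46), the Polycomb partner Jarid2 (1.58) and the chromatin protein Hmga2 (1.36) were higher, and Arid1a was at -0.26 and not called.

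**Figure D3:**
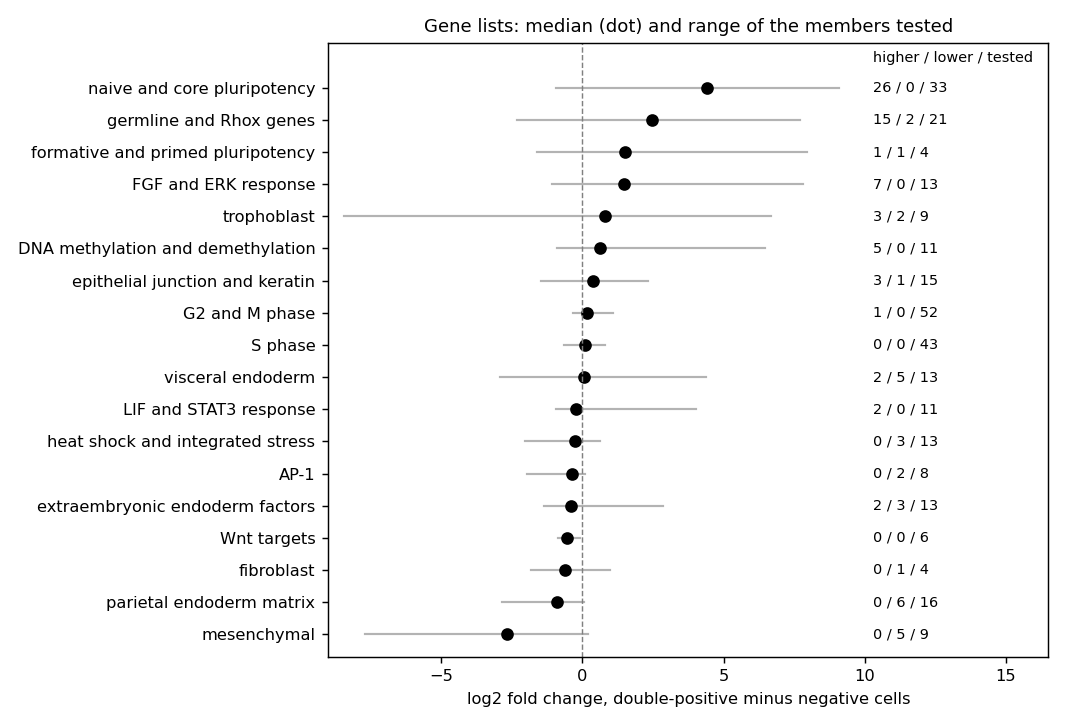
Gene lists on the y axis against the log2 fold change of double-positive minus negative cells on the x axis; dots are medians and grey lines run from the lowest to the highest member tested, with the number higher, lower and tested at the right. The naive list has a median of 4.41 and the mesenchymal list of -2.66, whose left end is Zeb2, a fitted value for a gene with no UMI in double-positive cells.

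Cells with only 1 of the 2 genes were compared with the same negative cells, in a model of all 4 classes. Values and calls of double-positive cells given beside them are from the comparison above. That was a separate fit with another set of genes and another estimate of spread. Cells with at least 2 UMIs of Pou5f1 and none of Zfp42 (121, 64 and 218 in the 3 libraries) had 639 genes higher (6.71%) and 337 lower (3.54%) of 9526 tested. Cells with Zfp42 and without Pou5f1 (64, 100 and 130) had 241 higher (2.53%) and 12 lower (0.126%), 253 in all. That count was 139 (135 higher and 4 lower) without day 14 replicate 1 and 143 with no replicate block. These comparisons share their negative cells with that of the double-positive cells, so the values stand side by side. Of the 762 genes higher in double-positive cells and tested in both, 559 were also higher in Pou5f1-only cells, which is 73.4% of the former and 87.8% of the latter. In Zfp42-only cells 238 were higher, 31.2% and 99.2%. Among lower genes 304 were shared with Pou5f1-only cells (43.2% and 90.2%) and 9 with Zfp42-only cells (1.28% and 75%). The numbers of cells differ between these classes, and so does the power of the tests. Dppa5a had log2 fold changes of 4.39, 4.16 and 3.03 in double-positive, Pou5f1-only and Zfp42-only cells, Nanog 8.37, 5.23 and 5.42, Sox2 6.03, 2.98 and 3.61, Vim -2.69, -1.76 and -0.63, and Col4a1 -1.64, -0.94 and -0.32. Median positions were 0.393, 0.420 and 0.350 in Pou5f1-only cells and 0.244, 0.276 and 0.119 in Zfp42-only cells of the 3 libraries. Double-positive cells were highest in each library. Zfp42-only cells were also present before induction, 186 of 6942 and 132 of 6155 passing cells in the XEN libraries.

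Few genes were called for a change of the class difference between the day 7 library and the day 14 libraries. The interaction of class and day, with 1 library at day 7, called 32 genes higher (0.252%) and 37 lower (0.291%). Day 7 had no replicate in this test, so its spread came from the 2 day 14 libraries alone, and a difference between days cannot be told apart from one of the single day 7 library. For Jun (log2 -1.53), Fos (-1.26), Fosb (-1.68) and the keratin Krt19 (-1.55), double-positive cells were above negative cells at day 7 and at or below them, or above by less, at day 14. For Stmn2 (-2.30), the level in double-positive cells went from 286 CPM in the day 7 library to 153 and 78.5 CPM in the day 14 libraries. For Crxos (-2.57) the level in double-positive cells was 103 CPM in the day 7 library and 80.6 and 103 CPM in those of day 14. In negative cells it was 0.086 CPM and then 0.426 and 0.506 CPM. Spp1, osteopontin, named after its value was seen, was the 1 gene of the naive list with a larger difference at day 14 (log2 1.53), at 89.4, 153 and 375 CPM in double-positive cells. The count was 18 with RLE normalization in place of TMM, and 0 without the library as a block, where 437 genes had an unadjusted p under 0.05.

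At day 28 double-positive cells were 24.5% and 31.6% of passing cells, 1367 and 626 cells. The change of the log2 fold change between classes from days 7 and 14 to day 28 was called positive in 361 genes (2.76%) and negative in 506 (3.86%) of 13096 tested. Day 28 was of another sequencing project than days 7 and 14, and each difference was taken within a library. The count of 867 was 179 without day 28 replicate 1, 247 without day 28 replicate 2, 351 without day 14 replicate 2 and 1351 without day 14 replicate 1, so it rests on single libraries. Nanog was at 104 and 91.4 CPM in double-positive cells of day 28, above each of the 3 earlier values, and its class difference changed by -2.28 (log2), with a level in negative cells of 1.28 and 1.72 CPM at day 28 and at or under 0.082 CPM before. Esrrb changed alike, at 40.8 and 40.9 CPM in double-positive and 1.51 and 1.46 CPM in negative cells (log2 -2.97). For Dppa5a (-1.63) the double-positive cells had 4428 and 4903 CPM at day 28 while the negative cells had 1107 and 464 CPM. Sox2 at 151 and 131 CPM, Dppa3 at 112 and 113 CPM and Utf1 at 328 and 241 CPM were above each earlier value. Genes called lower in the early double-positive cells whose change was positive included Tgfb1 (2.98), Trib3 (1.98), Chac1 (1.69), Ldhb and Vim. Choosing genes for a negative early difference favours a positive change. Ldhb was at 41.1, 66.7 and 48.1 CPM in the early libraries and then at 249 and 270.2 CPM (change of 3.65), and Vim was at 14.7, 25.01 and 15.1 and then 128 and 76.7 CPM (1.85).

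Some genes stood higher in the early double-positive cells than at either end of the conversion. Of the 1336 genes higher in double-positive cells, 369 (27.6%) were above every XEN, XEN-iPS and ES library in each of the 3 early libraries, against 10.5% of all 12716 genes tested. Of the same 1336, 310 (23.2%) were below every ES library, against 27.7% of all genes tested. These shares are a description, since the genes were chosen for a high level in the early cells. Levels are set side by side between libraries here, and those of ES cells came from another line and sequencing project. The part of such differences in these levels was not tested. Crxos at day 28 had a level of 78.3 and 60.6 CPM. It was at 14.997 and 1.45 CPM in XEN-iPS, 0.146 and 0.063 CPM in ES and 0.01 and 0.009 CPM in XEN cells. Aldh3a1 at day 28 had 7.21 and 10.998 CPM. It was at 2.33 and 2.48 CPM in XEN-iPS, 0.156 and 0.365 CPM in ES and 0 in XEN cells. Ly6a and Ly6k, members of the Ly6 family of surface proteins, were at 40.6, 35.0 and 183 CPM and at 32.0, 112 and 61.5 CPM in the early cells and at or under 6.28 CPM in each XEN-iPS and ES library. Other named genes above every XEN, XEN-iPS and ES library were Amn, Apom, Calcoco2, Cdh1, Cubn, Dsg2, Egr1, Elf5, Fgfr2, Sycp3 and Xist. Not all of these were low there, since Cdh1 was at 40.8 to 58.2 CPM in XEN-iPS and ES libraries and Calcoco2 at 35.7 and 16.8 CPM in XEN-iPS.

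**Figure D4:**
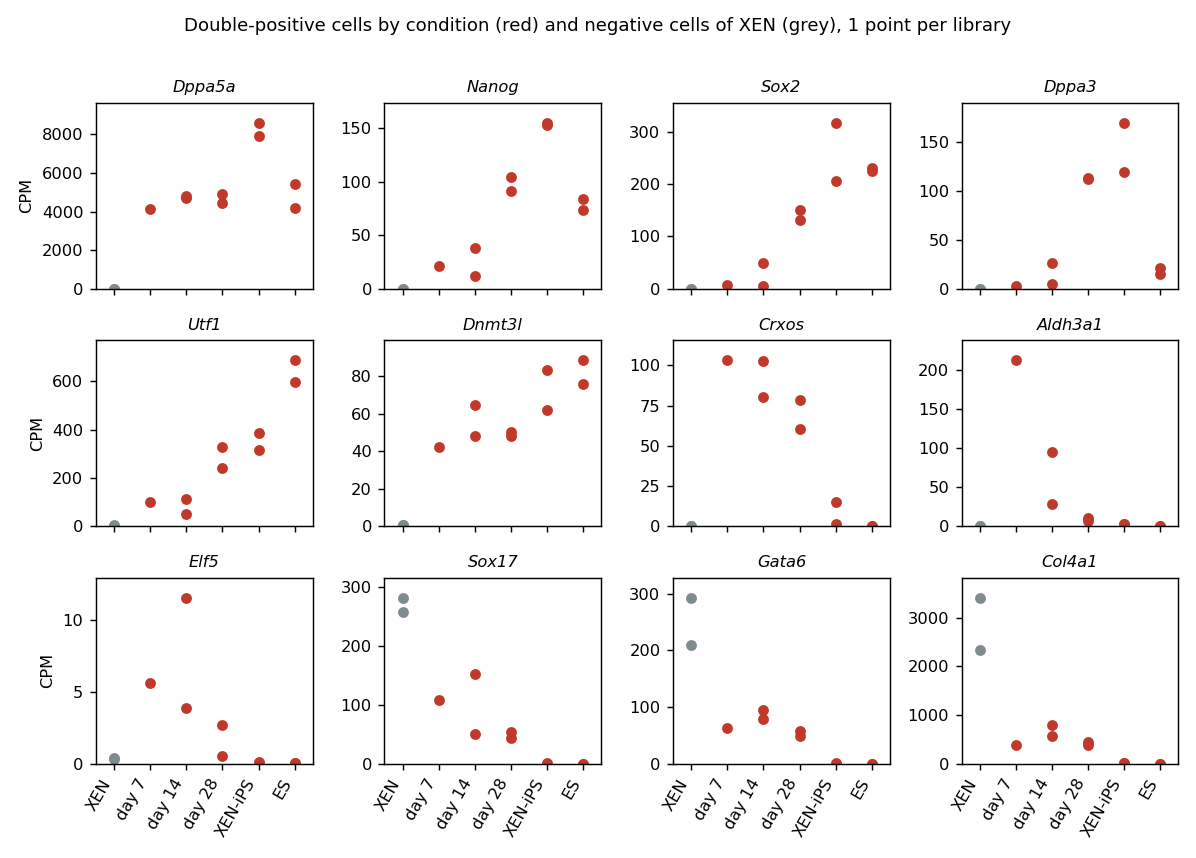
Levels in CPM (y axis, linear, from 0) of 12 genes in double-positive cells by condition (red) and in negative cells of XEN (grey), with 1 point per library. Nanog, Sox2, Dppa3 and Utf1 are higher at day 28 than in each early library, Dppa5a is at 4120.0 to 4811 CPM in the early libraries, and Crxos, Aldh3a1 and Elf5 are highest in the early libraries.

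Other measures that differed between the classes are given for completeness. The 4 Y-linked genes summed to 11.7, 0 and 0 CPM in double-positive cells of day 7 replicate 2, day 14 replicate 1 and day 14 replicate 2, where 0 counts allow up to 1.67 and 0.961 CPM. They summed to 13.6, 7.30 and 2.00 CPM in negative cells and 37.0 and 27.0 CPM in XEN cells. Xist, the RNA that silences an X chromosome, was at 32.0, 21.1 and 58.3 CPM against 5.95, 5.29 and 8.87 CPM (log2 2.33), and at 0.493 and 0.174 CPM in XEN cells. Xist was not called with day 28 in the model (log2 1.23, adjusted p = 0.063). The part of the Y-linked genes and of Xist in the other differences was not tested. Scrublet marked 0 of the members as doublets but also at most 1 cell per library of days 7 and 14, so the caller had not worked there. In the day 28 libraries it marked 3 and 10 cells, of which 3 and 8 were double-positive, and the highest 5% of scores held 8.12% and 8.95% of double-positive against 2.28% and 3.25% of negative cells. At days 7 and 14, median doublet scores of double-positive cells lay below those of negative cells in each of the 3 libraries (0.0458, 0.0628 and 0.0531 against 0.0708, 0.0716 and 0.0724). The highest 5% of scores in these libraries held 4.17%, 9.90% and 7.50% of double-positive cells and 5.75%, 4.73% and 6.10% of negative cells, a larger share of the members in both day 14 libraries. With the highest 5% of scores left out, an alternative added after seeing the data, 2236 genes were called, against 2195. Cell barcodes of 10, 5 and 8 members also occurred in another library of the sequencing project (8.33%, 4.95% and 5.00%), as did those of 7.43%, 7.54% and 6.99% of negative cells, and 2244 genes were called without them.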

How the data were processed

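The members and gene lists were chosen with earlier results of these data known. The authors made 10x Genomics 3' v2 libraries, aligned the reads with SEQC to GRCm38 (mm10) and deposited UMI counts per gene and cell, which are whole numbers. Libraries of days 7 and 14 held 55795034 to 89590948 UMIs. Counts were summed per library and class (double-positive, negative, or only 1 of the 2 genes). Genes passing filterByExpr were tested with edgeR 4.0.16 (quasi-likelihood test, TMM normalization, library as block, so both classes of a library are paired) in R 4.3.3, with Benjamini-Hochberg adjustment over all genes tested. Classes needed 10 cells per library. Standard errors are the absolute log2 fold change over the square root of its quasi-F statistic, whose spread is shared in part across genes. They are not the spread of single libraries. A call needed an adjusted p below 0.05 together with a change of 1 or more on the log2 scale. The named genes were the top 15 and bottom 10 calls by log2 fold change that reached 50 CPM in the mean of the higher class and the same direction in every library, up to 8 members per list by absolute log2 fold change, and those the study names. Of the named genes, 1 is not reported here. Positions used Python 3.11.15 and scanpy 1.11.5. In simulated counts 95% of 100 genes changed by a log2 of 1.5 and 100% of 100 changed by 2 were recovered, with 2 false calls among 12581 genes. The changed genes were drawn only from those above a minimum mean level, and all genes were given the same dispersion. The recovery therefore does not cover genes of few UMIs. Promoters were from RefSeq (GRCm38.p6), and gene coordinates from GENCODE vM21 matched 97.9% of genes tested. Alternatives were RLE normalization, no filter, DESeq2 1.42.0, no block, depth-matched cells, other limits for the classes, doublets and shared barcodes left out, day 28 added and single libraries left out.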

Additional observations from a re-analysis of the deposited data

Results flagged for a closer look

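The difference between double-positive and negative cells was tested for a change with time by an interaction term (edgeR's quasi-likelihood test, Benjamini-Hochberg adjusted p under 0.05). From the single day 7 library to the day 14 libraries it changed, on the log2 scale, by -2.30 for Stmn2, -2.57 for Crxos, -1.53 for Jun, -1.68 for Fosb, -1.26 for Fos and -1.55 for Krt19. Day 7 had 1 library in this test, so the spread came from the 2 day 14 libraries alone, and day and library cannot be told apart.

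From days 7 and 14 to day 28 it changed among pluripotency genes by -1.63 for Dppa5a, -2.28 for Nanog, -2.97 for Esrrb, -3.18 for Nr5a2, -1.92 for Gdf3, -1.36 for Dppa4, -2.42 for Dnmt3l and 1.30 for Tet1. For the other genes highest in the early cells it changed by -2.68 for Stmn2, -3.13 for Crxos, -3.68 for Calcoco2, -2.37 for Fam25c, -3.27 for Aldh3a1, -2.24 for Apoc1, -2.87 for Ly6a, -1.91 for Gng2, -2.12 for Ly6k and -1.02 for Pycard. These genes were chosen for a large early difference, and the same early values enter the change. The choice thus favours a negative change. Endoderm genes changed by -1.03 for Sox17, -1.09 for Foxa2, -1.17 for Foxq1, -1.08 for Lamc1, -1.41 for Amn and -1.67 for Apom, and Ldhb by 3.65 and Vim by 1.85. Signalling and AP-1 genes changed by -1.43 for Jun, -1.07 for Junb, -1.51 for Fosb, -1.44 for Fos, -1.85 for Egr1, 2.83 for Spry1 and 1.55 for Pim1. Junction, mesenchymal, trophoblast and stress genes changed by -1.01 for Krt18, -1.91 for Krt19, 3.46 for Cldn4, 2.98 for Tgfb1, -2.81 for Elf5, 1.69 for Chac1 and 1.98 for Trib3. Xist changed by -2.46. The Y-linked Ddx3y has a fitted value of -7.58, which is no measured change, since double-positive cells had no UMI of it in both day 14 and both day 28 libraries and 6.601 CPM in the day 7 library.

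Levels in the negative cells moved with these changes. Dppa5a in negative cells was at 149.8, 245 and 230.2 CPM at days 7 and 14 and at 1107 and 464 CPM at day 28, and Nanog was at 0.037, 0.053 and 0.082 CPM and then 1.28 and 1.72 CPM. Day 28 was also of another sequencing project. The part of either in the changes was not tested.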

How the results depend on the processing

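The count of 2195 genes called between double-positive and negative cells stayed within 1.5 times under 18 alternatives (1 of them, the doublets marked by Scrublet, held no member and could not change it), from 1699 with depth-matched negative cells to 2906 with day 28 in the model. Of the 2195, 841 (38.3%) were called in all 18. Of 131 named genes, 108 had a value in all 18 alternatives, and 70 of these kept their direction and side of the threshold in each. Of the 89 called, 73 had a value in all 18, and 61 of these kept an adjusted p below 0.05 in each. The library was the pairing block, since both classes come from each library. With no replicate block the day 14 against day 7 count went from 69 to 0, the day 28 count from 867 to 107, the Pou5f1-only count from 976 to 675 and the Zfp42-only count from 253 to 143, and Gkn2, Tff1 and Trib3 were not called (adjusted p of 0.076, 0.12 and 0.063, edgeR). With RLE normalization the day 14 against day 7 count was 18. With no filter on low counts the day 28 count was about 1.3e+03 (621 positive and 689 negative changes), the Pou5f1-only count 1589 and the Zfp42-only count 447. Leaving out single libraries gave 179 to 1351 genes for day 28, 802 to 1028 for Pou5f1-only and 139 to 207 for Zfp42-only cells, where 139 was without day 14 replicate 1. For day 14 against day 7 no library could be left out.

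With 1 or more UMI of each gene the shares were 2.71%, 2.98% and 3.32% in day 7 replicate 2 and day 14 replicates 1 and 2. With at least 3 Pou5f1 and 2 Zfp42 UMIs they were 0.984%, 1.01% and 0.998%, and 0 in day 7 replicate 1. With 50 genes per side the median positions were 0.63, 0.67 and 0.57, and with 5000 UMIs that of day 14 replicate 2 was 0.55.

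Of the named genes, 11 changed sign, none of them called. Log2 fold changes with day 28 in the model were -0.0475 for Foxq1, 0.0453 for Fosl1, -0.57 for Fos, 0.34 for Spry1, -0.375 for Krt19, -0.18 for Gata3 and 0.11 for Cdx2. With the stricter UMI limits they were 0.73 for Fosl1, -0.19 for Fos, -0.29 for Krt19 and -0.75 for Cldn4. Without positions over 0.8 they were 0.0489 for Fosb and -0.40 for Twist1, which was at -0.55 in DESeq2 and -0.0725 without the highest 5% of doublet scores. Leaving out 1 library at a time gave 0.0971 (without day 14 replicate 2) to 0.8866 (without day 7 replicate 2) for Fosl1, -0.7975 (without day 7 replicate 2) to 0.1038 (without day 14 replicate 2) for Fosb, and -0.3596 to 0.3028, with the same libraries at the ends, for Fos. It gave -0.0525 (without day 7 replicate 2) to 0.7482 (without day 14 replicate 1) for Krt19, -7.2266 (without day 14 replicate 1, where no UMI was left) to 1.2089 for Twist1, -0.1113 (without day 14 replicate 2) to 1.1511 for Gata3, -1.43 (without day 14 replicate 1) to 0.1019 (without day 7 replicate 2) for Cdx2, and -0.8969 (without day 7 replicate 2) to 0.0256 for Hspa1a, which was at 0.0011 without day 14 replicate 1. The causes were not tested. The sets without positions over 0.8, without the highest doublet scores and with day 7 replicate 1 were chosen after seeing the data. With 101 to 160 members per library, genes of a few UMIs per class carry wide errors.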
